A study of Mus musculus with 2 samples.

Results

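Foxp3-expressing CD4 T cells with a transcript of Ikzf2, the gene for Helios, were compared with Foxp3-expressing CD4 T cells in which no Ikzf2 transcript was captured. The cells came from 1 lymph node library and 1 spleen library, which together held 11919 barcodes. A barcode entered when it had 500 or more genes, at most 10% of its unique molecular identifiers (UMIs, 1 per captured transcript) from mitochondrial genes, 1200 or more UMIs and 1 or more Foxp3 UMIs, which 2194 barcodes met. Each cell was thinned at random to 1200 UMIs. Cells with 1 or more Ikzf2 UMIs after thinning are called Helios-detected (1139 cells). Cells with 0 Ikzf2 UMIs in their full counts are called Helios-undetected (643 cells). The remaining 412 Foxp3 cells had Ikzf2 in full counts but none after thinning and are on neither side. The members were thus chosen by their measured Ikzf2 and Foxp3 counts, so their own levels are given as a description.

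All cells were sorted as CD4+ CD25+, YFP+ and YFP- together, from healthy female Mycfl/flFoxp3Cre/WT mice, and were profiled with the 10x 3′ V2 kit. Both copies of Myc are floxed and 1 of the 2 X-linked Foxp3 alleles carries Cre, so Myc-deficient Treg cells, which use the Cre allele, and Myc-sufficient Treg cells, which use the wild-type allele, live in the same animal. The Cre acts only in cells that express Foxp3 from that allele. Which cells were YFP+, their ratio in the sort, and the number and age of the mice were not stated in the labels. With 1 library per tissue there is no replicate and no test. All intervals are at 95%. They cover counting error only, and those of list medians come from the spread of the member genes instead.

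Treg (regulatory T) cells hold immune responses in check, and their identity depends on the X-linked transcription factor Foxp3. Helios is a zinc finger transcription factor of the Ikaros family that many Treg cells express. It has been used, with the surface receptor neuropilin-1 (Nrp1), to mark Treg cells that arose in the thymus, although activated T cells can also express it. Treg cells of lymphoid organs range from resting cells, which carry lymph node homing receptors such as Ccr7, to effector cells, which carry tissue-homing and activation molecules such as Klrg1 and Icos.

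On GRCm38, Ikzf2 (ENSMUSG00000025997) lies on the minus strand of chromosome 1 from 69531214 to 69687245, and Foxp3 (ENSMUSG00000039521) on the plus strand of chromosome X from 7573644 to 7595245. Proteins of the Ikaros family bind DNA at the core letters GGGAA. The 250 bases before the RefSeq transcription start are shown for 3 genes that stood higher in the Helios-detected cells of both libraries. These are 2 nearby S100 genes of chromosome 3 and Nrp1, the receptor paired with Helios as a marker. They are RefSeq sequences on GRCm38.p6, plus strand, 5′ to 3′, at chr3:90603520-90603769, chr3:90612644-90612893 and chr8:128358823-128359072. The gene bounds given elsewhere are from GENCODE M21, whose earliest starts differ: the Nrp1 stretch lies inside the GENCODE gene, which begins at 128358604, and the S100a6 stretch overlaps its first bases. Capitals mark GGGAA on either strand (read as TTCCC from the opposite strand), with 2, 2 and 3 matches.
S100a4: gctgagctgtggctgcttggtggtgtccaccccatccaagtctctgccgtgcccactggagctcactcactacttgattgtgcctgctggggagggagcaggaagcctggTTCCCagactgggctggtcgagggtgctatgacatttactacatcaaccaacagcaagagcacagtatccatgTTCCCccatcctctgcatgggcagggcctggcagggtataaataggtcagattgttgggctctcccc
S100a6: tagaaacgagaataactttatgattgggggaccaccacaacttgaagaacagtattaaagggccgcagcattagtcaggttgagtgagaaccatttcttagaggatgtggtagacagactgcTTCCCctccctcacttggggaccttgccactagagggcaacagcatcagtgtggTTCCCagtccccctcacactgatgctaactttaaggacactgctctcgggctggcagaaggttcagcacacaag
Nrp1: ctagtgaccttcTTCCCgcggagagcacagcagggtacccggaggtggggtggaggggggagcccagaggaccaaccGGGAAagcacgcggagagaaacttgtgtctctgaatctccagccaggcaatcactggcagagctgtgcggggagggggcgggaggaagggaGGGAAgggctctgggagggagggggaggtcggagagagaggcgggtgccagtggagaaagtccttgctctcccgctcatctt
Of the 12 named genes with the largest excess in Helios-detected cells, 8 had a promoter entry, and 6 of these held the 5 letters. Of the 12 with the largest excess in Helios-undetected cells, 9 had an entry and 5 held them. The letters occurred in 55.9% of all 27025 promoters of this length and in 59.5% of the 1810 promoters of the genes compared below. A match of 5 letters is a description of the sequence, not a binding site.

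In the lymph node library 524 of 988 Foxp3 cells were Helios-detected (53.0%, Clopper-Pearson interval 49.9 to 56.2) and 276 were Helios-undetected (27.9%). In the spleen library 615 of 1206 were Helios-detected (51.0%, interval 48.1 to 53.9) and 367 were Helios-undetected (30.4%). The shares of the libraries lay within each other's counting error. The Helios-detected cells held more UMIs before thinning, with a median of 2859.5 in lymph node, where the other side had 2457.5. In spleen the medians were 2994 and 2594. After thinning to equal depth they held a median of 649.5 genes in lymph node, where the other side had 609.5, and of 659 in spleen, where it had 596. Median mitochondrial shares lay between 2.58% and 2.72% in all 4 groups. The libraries share 53 barcodes, of which 5 lymph node and 12 spleen cells are in the compared groups. Leaving them out moved no named gene and no list median outside its interval.

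Ikzf2 had 1082 UMIs in the Helios-detected lymph node cells, or 1721 CPM (counts per 1000000 thinned UMIs of the group), and 1232 UMIs in the spleen cells, or 1669 CPM. Most of these cells held few: 236 of 524 (45.0%) and 304 of 615 (49.4%) had a single Ikzf2 UMI, and the most in 1 cell was 8 and 9. At equal depth an Ikzf2 UMI was also found in 42.0% of lymph node and 37.6% of spleen cells without a Foxp3 UMI. B cell-marker barcodes, which should lack Helios, showed it in 3 of 43 (6.98%, interval 1.46 to 19.1; median 2229 UMIs) and 0 of 44 (up to 6.82% at the limit of 3 counts; median 1999 UMIs). Foxp3 itself was found in none of these B cell-marker barcodes after thinning. Cells of both sides were required to hold a Foxp3 UMI, so the Foxp3 level of the sides is only a description. It was at 498 CPM in Helios-detected and 507 CPM in Helios-undetected lymph node cells (ratio 0.981, interval 0.811 to 1.19), and at 509 and 504 CPM in spleen (ratio 1.01, interval 0.854 to 1.20).

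**Figure D1:**
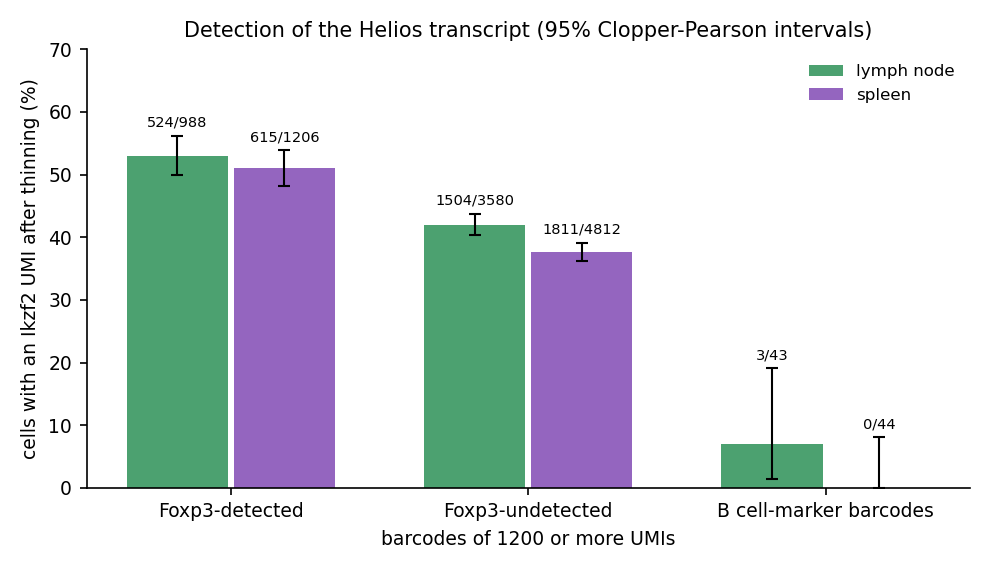
Bars give the percentage of barcodes of 1200 or more UMIs with an Ikzf2 UMI after thinning, in Foxp3-detected cells, Foxp3-undetected cells and B cell-marker barcodes of each library, with the counts above and 95% Clopper-Pearson intervals. Ikzf2 was captured in 53.0% and 51.0% of Foxp3-detected cells, and in 3 of 43 and 0 of 44 B cell-marker barcodes.

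Of 2273 genes with a mean of 50 CPM or more over the 2 groups in each library, 98 (4.31%) were 1.5-fold or more higher in the Helios-detected cells of both libraries. Only 11 (0.484%) were 1.5-fold or more lower in both. At any size, 1041 genes (45.8%) were higher in both libraries and 441 (19.4%) were lower in both. The median gene had a log2 ratio of 0.08 in lymph node and 0.13 in spleen. With the median gene set to a ratio of 1, the split became 69 higher and 18 lower. Leaving out every cell with a Klrg1, S100a4, Ccl5 or Itgae UMI, which removed 30.9% of the Helios-detected and 12.7% of the Helios-undetected lymph node cells and 37.9% and 6.27% in spleen, left 57 higher and 10 lower.

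Which single genes passed depended partly on the random draw of the thinning, and list medians did so little. With each cell's counts replaced by their expectation over all draws, 80 genes were higher and 13 lower in both libraries, and 63 of the 98 (64.3%) and 8 of the 11 were among them. A second draw gave 93 and 14, with 57 and 6 shared. Genes named below were picked for large ratios in the first draw, so their ratios may run high, and the value over all draws is given where it differed by more than 1.5 times. On those expected counts all 28 list medians (14 lists in each library) lay within the intervals given here.

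**Figure D2:**
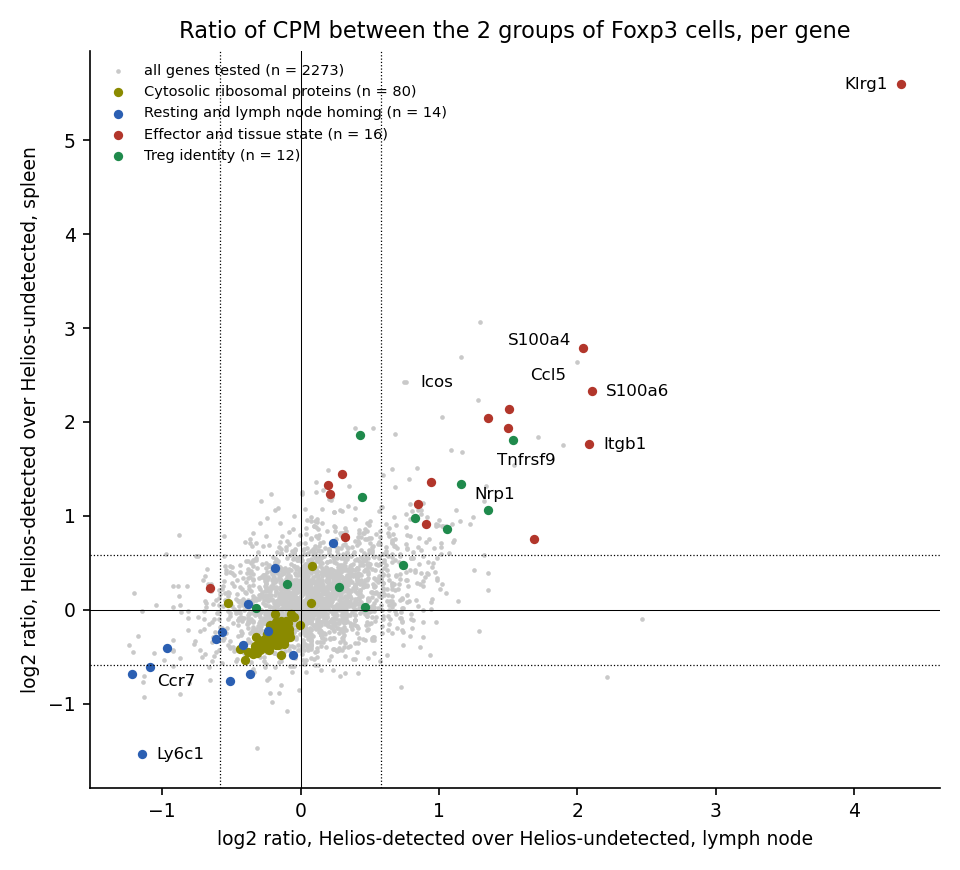
Each point is 1 gene; the axes give the log2 ratio of CPM, Helios-detected over Helios-undetected, in lymph node (horizontal) and spleen (vertical), dotted lines mark 1.5-fold, and colours mark 4 gene lists. Klrg1 lies far to the upper right, 77 of 80 ribosomal protein genes lie below 0 in both libraries, and Ly6c1 and Ccr7 lie to the lower left.

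The effector and tissue-homing list had the highest median of the 14 lists with 5 or more compared members. Of 27 listed genes 16 passed the filter on level in both libraries. Of these, 15 were higher in both libraries and 11 were 1.5-fold or more higher, against 4.31% of all genes, and none was lower in both. The filter uses the mean of the 2 groups, so in any list a gene can pass through 1 side alone. Klrg1 did so through its Helios-detected level (122 and 110 CPM), with the other side at 6.04 and 2.27 CPM. Itgae entered the spleen median likewise, at 163 and 11.4 CPM. With no filter on level, all 28 list medians stayed within their intervals. The median log2 ratio over 17 lymph node members was 1.19 (interval 0.32 to 1.69) and over 19 spleen members 1.76 (interval 1.12 to 2.79), against 0.08 and 0.13 over all genes. Without the cells that held a Klrg1, S100a4, Ccl5 or Itgae UMI, the medians were 0.40 and 0.71. That choice was made on genes of the list itself, apart from Ccl5, which is on no list.

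Klrg1, an inhibitory lectin receptor of effector lymphocytes, was found almost only on the Helios-detected side. It had 77 UMIs in 52 of 524 Helios-detected lymph node cells and 2 UMIs in 2 of 276 Helios-undetected cells, which is 122 CPM against 6.04 CPM (ratio 20.3, interval 5.43 to 170). In spleen it had 81 UMIs in 53 of 615 cells and 1 UMI in 367 cells, 110 CPM against 2.27 CPM (ratio 48.3, interval 8.43 to 1932). Over all draws its ratios were 27.1 and 27.7. The transcript was seen in 9.92% (interval 7.50 to 12.8) and 8.62% (interval 6.52 to 11.1) of Helios-detected cells. It was in 0 of 43 and 0 of 44 B cell-marker barcodes, with intervals up to 8.22% and 8.04% that overlap these.

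S100 genes, which encode small calcium-binding proteins abundant in migrating and effector T cells, were higher in both tissues. S100a6 was at 795 CPM (interval 727 to 868) against 184 (interval 141 to 237) in lymph node, a ratio of 4.32. In spleen it was at 911 CPM (interval 843 to 982) against 182 (interval 144 to 226), a ratio of 5.01. S100a4 had ratios of 4.11 (interval 2.90 to 5.99; 447 against 109 CPM) and 6.90 (interval 4.90 to 9.98; 564 against 81.7 CPM). These 2 genes lie close together on chromosome 3, S100a4 from 90603771 to 90606045 and S100a6 from 90612882 to 90624181. S100a11 (2.84 and 4.41) and S100a10 (1.92 and 2.56), further along the same chromosome, were higher too. Lgals1, which encodes the carbohydrate-binding protein galectin-1, was at 1019 against 399 CPM in lymph node cells and 1432 against 347 CPM in spleen cells (ratios 2.56 and 4.12). In spleen 59.0% of Helios-detected and 25.3% of Helios-undetected cells had an Lgals1 UMI, beside 31.8% of 44 B cell-marker barcodes, so the Helios-undetected share was not above that background. In lymph node the shares were 41.6% and 30.8%, beside 18.6% of 43 B cell-marker barcodes.

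Itgb1, the integrin beta 1 chain, was at 167 against 39.3 CPM in lymph node cells (ratio 4.25, interval 2.38 to 8.25) and 146 against 43.1 CPM in spleen (ratio 3.39, interval 2.07 to 5.85). Itgae, the alpha E chain that binds epithelial E-cadherin, was below the filter on level in lymph node. It had 19 against 2 UMIs there (ratio 5.0, interval 1.21 to 44.3) and 120 against 5 UMIs in spleen (ratio 14.3, interval 5.97 to 44.9). Among cells with 2 or more Foxp3 UMIs the lymph node direction turned, to a log2 ratio of -1.415, on few UMIs. Ccl5, a chemokine, was at 181 against 45.3 CPM in lymph node cells (ratio 4.0, interval 2.33 to 7.39) and 98.9 against 15.9 CPM in spleen (ratio 6.22, interval 2.87 to 16.0). Its UMIs came from few cells, 47 and 40 of the Helios-detected cells, and a single cell gave 11.4% and 12.3% of them. In lymph node a Ccl5 UMI was found in 8.97% of Helios-detected and 3.99% of Helios-undetected cells, beside 3 of 43 B cell-marker barcodes (6.98%, interval 1.46 to 19.1), so neither share was separable from that background. In spleen the shares were 6.50% and 1.36%, beside 0 of 44. Nkg7, a granule protein of cytotoxic lymphocytes, was 3.29-fold and 3.58-fold higher, or 1.96-fold and 3.51-fold over all draws. Gata3, a transcription factor of type 2 helper cells and of a subset of Treg cells, was at 165 against 51.3 CPM in lymph node cells and 176 against 104 CPM in spleen cells (ratios 3.22 and 1.69).

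**Figure D3:**
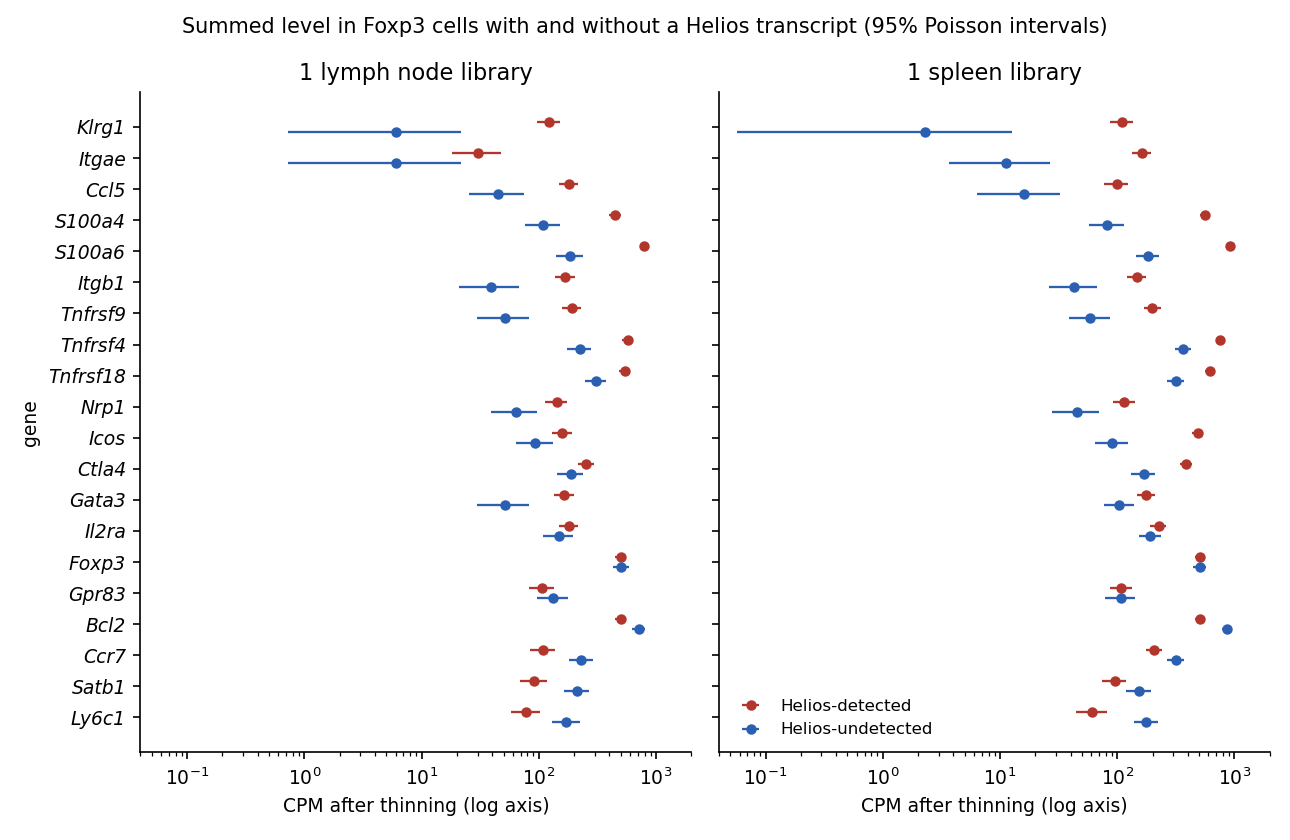
Points give the CPM after thinning (log axis) of 20 genes in Helios-detected (red) and Helios-undetected (blue) Foxp3 cells of each library, and bars the 95% Poisson intervals. Ratios are largest for Klrg1 and Itgae, and the order is opposite for Bcl2, Ccr7, Satb1 and Ly6c1. Intervals overlap in both libraries for Il2ra, Gpr83 and Foxp3, which was required of every cell. In lymph node those of Itgae, Ctla4 and Icos overlap too, and in spleen those of Satb1 overlap slightly.

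The Treg identity list had a positive median in both libraries. Of 20 listed genes 12 passed the filter; 10 were higher in both libraries (45.8% of all genes were), 5 were 1.5-fold or more higher (4.31% of all genes) and none was lower in both. The median log2 ratio was 0.74 for lymph node (interval 0.28 to 1.35, 13 members) and 0.98 for spleen (interval 0.27 to 1.34, 15 members). Nrp1 was at 142 against 63.4 CPM in lymph node cells (ratio 2.23, interval 1.38 to 3.78) and 115 against 45.4 CPM in spleen (ratio 2.54, interval 1.54 to 4.36). An Nrp1 UMI was found in 14.7% and 12% of Helios-detected cells and in 7.61% and 5.45% of Helios-undetected cells. It was in 0 of 43 and 0 of 44 B cell-marker barcodes (intervals up to 8.22% and 8.04%). The Helios-undetected shares were thus not separable from that background. Ikzf4, the gene for Eos, another Ikaros family member that works with Foxp3, stood below the filter on level. It had 49 against 10 UMIs (ratio 2.58, interval 1.29 to 5.71) and 50 against 14 UMIs (ratio 2.13, interval 1.16 to 4.17). Ikzf1, the gene for Ikaros, was lower in lymph node, at 97.0 against 157 CPM (ratio 0.618, interval 0.420 to 0.912), and not separated in spleen, at 123 against 132 CPM.

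Il2ra and Gpr83 were not separated by more than counting error. Il2ra, which encodes CD25, the protein all cells were sorted on, was at 180 against 148 CPM in lymph node cells (ratio 1.21, interval 0.861 to 1.74) and 225 against 191 CPM in spleen (ratio 1.18, interval 0.902 to 1.55). Gpr83, a receptor used as a Treg marker, had ratios of 0.802 (interval 0.540 to 1.20) and 1.02 (interval 0.700 to 1.49). Among the 5 suppressor genes that passed the filter, of 18 listed, all 5 were higher in both libraries, beside 45.8% of all genes. Icos alone reached 1.5-fold in both, beside 4.31% of all genes. The median log2 ratios were 0.64 and 1.21. Ctla4, an inhibitory receptor through which Treg cells act on antigen-presenting cells, was at 254 against 187 CPM in lymph node cells (ratio 1.36, interval 1.01 to 1.85) and 388 against 168 CPM in spleen (ratio 2.31, interval 1.78 to 3.02). Icos, a costimulatory receptor, was at 159 against 93.6 CPM in lymph node cells and 486 against 90.8 CPM in spleen cells. Its ratio was 1.70 (interval 1.13 to 2.63) in lymph node and 5.36 (interval 3.86 to 7.62) in spleen, and the Helios-undetected cells of the tissues had the same level within counting error. The difference between the tissues was not tested.

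Receptors of the tumour necrosis factor family, which carry costimulatory signals to Treg cells, formed a list of 15 genes, of which 9 passed the filter. Of these, 6 were higher in both libraries, beside 45.8% of all genes, and 4 were 1.5-fold or more higher, beside 4.31%. Its median log2 ratios of 0.63 (lymph node) and 0.51 (spleen) had wide intervals (-0.18 to 1.35 and 0.05 to 1.75). Tnfrsf9 (4-1BB) was at 191 against 51.3 CPM in lymph node cells (ratio 3.72, interval 2.23 to 6.59) and 199 against 59.0 CPM in spleen (ratio 3.37, interval 2.21 to 5.34). Tnfrsf4 (OX40) was at 571 against 223 CPM and 760 against 363 CPM (ratios 2.56 and 2.09). Tnfrsf18 (GITR) was at 541 against 305 CPM and 621 against 316 CPM (ratios 1.77 and 1.97). Tnfrsf1b (TNF receptor 2) was at 89.1 against 36.2 CPM and 94.9 against 11.4 CPM (ratios 2.46 and 8.35, or 2.51 and 5.05 over all draws). For these 4 receptors the intervals of the ratios lay above 1 in both libraries.

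Helios-undetected cells carried more transcripts of resting T cells and of lymph node homing. Of 18 listed genes 14 passed the filter. Of these, 11 were lower in the Helios-detected cells of both libraries, beside 19.4% of all genes, and 1, Il7r, was higher in both. Ccr7, Satb1 and Ly6c1 were 1.5-fold or more lower, against 0.484% of all genes. All 3 also passed on the expected counts over all draws. In the second draw Satb1 and Ly6c1 passed and Ccr7 did not, with Helios-detected over Helios-undetected ratios of 0.687 in lymph node and 0.530 in spleen. The median log2 ratio was -0.46 for lymph node (interval -1.09 to -0.18) and -0.40 for spleen (interval -0.69 to -0.23). Ly6c1, a surface antigen of resting T cells, was at 77.9 CPM in Helios-detected and 172 CPM in Helios-undetected lymph node cells, and at 61.0 and 177 CPM in spleen, or 2.21-fold and 2.90-fold higher in Helios-undetected cells. Ccr7, the chemokine receptor for entry to lymph nodes, was at 108 against 229 CPM and 207 against 316 CPM, or 2.12-fold (interval 1.51 to 2.99) and 1.52-fold (interval 1.20 to 1.93) higher in Helios-undetected cells. Satb1, a chromatin organiser of resting T cells, was 2.33-fold and 1.60-fold higher in them.

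Single genes with higher levels in Helios-undetected cells included Bcl2, Pik3ip1, Txk and Lef1. Bcl2, which blocks programmed cell death, was at 501 against 713 CPM in lymph node cells (ratio 0.703, interval 0.592 to 0.836) and 509 against 861 CPM in spleen (ratio 0.592, interval 0.512 to 0.685). With Helios-undetected cells weighted to the depth of the Helios-detected cells, its log2 ratios were -0.34 and -0.55. Pik3ip1, an inhibitor of PI3 kinase, was at 92.2 against 202 CPM and 110 against 179 CPM, or 2.19-fold and 1.63-fold higher in Helios-undetected cells. In the second draw its Helios-detected over Helios-undetected ratios were 0.579 and 0.729, short of 1.5-fold in spleen. Txk, a kinase of the T cell receptor pathway, was at 71.6 against 157 CPM and 50.1 against 95.4 CPM, or 2.19-fold and 1.90-fold higher in them. Lef1, a transcription factor of naive T cells, was 1.95-fold higher in Helios-undetected lymph node cells (interval 1.40 to 2.72) and 1.32-fold in spleen, where the interval reached 1.

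Genes for the proteins of the cytosolic ribosome were lower together in Helios-detected cells, by a small amount. Of 83 listed genes 80 passed the filter; 77 were lower in both libraries and 2 were higher in both, and none reached 1.5-fold. The share of all genes lower in both was 19.4%. The median log2 ratio was -0.18 for lymph node (interval -0.21 to -0.17) and -0.27 for spleen (interval -0.31 to -0.24). Summed over the list, ribosomal transcripts took 319189 CPM in Helios-detected and 366558 CPM in Helios-undetected lymph node cells. Examples are Rpl12 (2333 against 3161 CPM in lymph node, 2179 against 2916 in spleen) and Rps19 (ratios 0.787 and 0.722). CPM values share a total, so a lower ribosomal share and a higher share of other genes cannot be told apart. Translation factors had medians of -0.03 and -0.06 over 28 members, nearer 0 than the ribosomal proteins but also below the 0.08 and 0.13 of all genes. Of these, 7 were higher and 11 lower in both libraries, beside 45.8% and 19.4% of all genes.

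**Figure D4:**
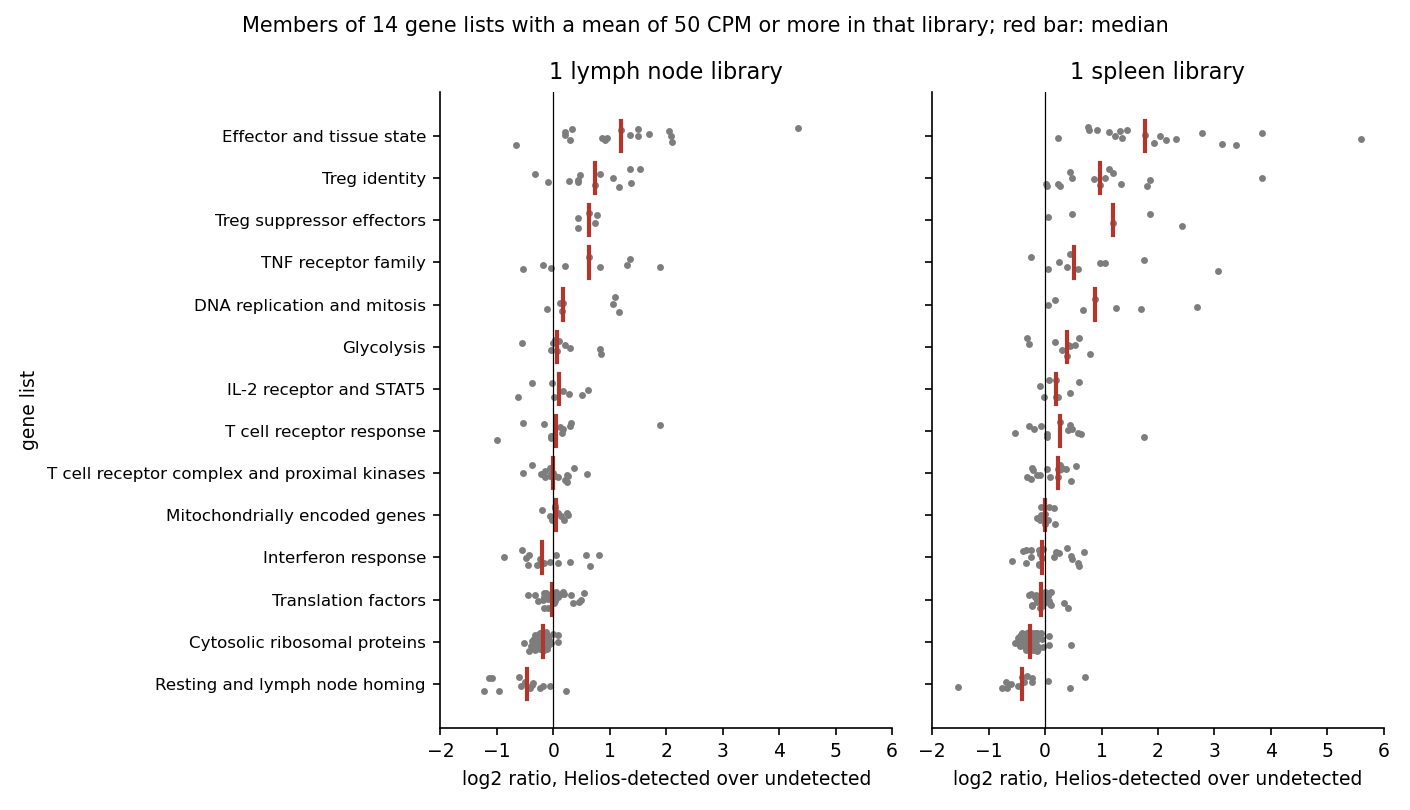
Each grey point is a member of 1 of 14 gene lists, placed by its log2 ratio, Helios-detected over Helios-undetected, in lymph node (left) and spleen (right), for members with a mean of 50 CPM or more in that library; red bars are medians. Effector genes have medians of 1.19 and 1.76, and ribosomal proteins and resting genes lie below 0 in both libraries.

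Lists of signalling and metabolism showed little order between the sides. Of all genes, 45.8% were higher and 19.4% lower in both libraries. Of 17 T cell receptor complex and proximal kinase genes 8 were higher and 5 lower in both libraries, with medians of 0.00 and 0.22. Of 12 T cell receptor response genes that passed the filter 6 were higher and 4 lower in both. The list holds Tnfrsf9, given above, and Jun, a subunit of the AP-1 factor, which was lower (103 against 205 CPM in lymph node, 127 against 184 in spleen). Of 7 interleukin-2 receptor and STAT5 genes 4 were higher and 1 lower in both. Il2rb, the beta chain of the interleukin-2 receptor, was at 398 against 260 CPM and 363 against 241 CPM (ratios 1.53 and 1.51). Interferon response genes had medians of -0.20 and -0.05. Glycolysis genes had medians of 0.06 in lymph node and 0.39 in spleen, with intervals that held 0. Myc, the floxed gene, had few UMIs, 26 against 14 in lymph node (ratio 0.978, interval 0.492 to 2.03) and 37 against 19 in spleen (ratio 1.16, interval 0.651 to 2.14). The labels do not say which part of Myc is removed, so its 3′ tag does not tell an intact from a deleted cell.

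The list of DNA replication and mitosis had a median log2 ratio of 0.18 in lymph node, with an interval that held 0 (-0.11 to 1.16), and 0.89 in spleen (interval 0.05 to 2.69). Of 7 members that passed the filter, of 24 listed, 6 were higher in both libraries, beside 45.8% of all genes. Stmn1, Hmgb2 and H2afz, 3 of the 7, were 1.5-fold or more higher, beside 4.31% of all genes. Hmgb2, a chromatin protein abundant in dividing cells, was at 617 against 290 CPM in lymph node cells and 714 against 220 CPM in spleen cells (ratios 2.13 and 3.24, or 1.60 and 2.97 over all draws and 1.27 and 2.54 in the second draw). H2afz, a histone variant, had ratios of 2.08 and 1.85. Stmn1, a microtubule regulator of dividing cells, had log2 ratios of 1.16 and 2.69, which were 0.55 and 1.34 after weighting the Helios-undetected cells to the depth of the Helios-detected cells. Without the 6% of barcodes with the most UMIs its lymph node log2 ratio turned to -0.41. A Mki67, Top2a or Birc5 UMI in full counts was found in 12% of Helios-detected and 5.43% of Helios-undetected lymph node cells, and in 15.1% and 2.72% in spleen. These shares are of cells of unequal depth. Leaving such cells out gave 80 genes 1.5-fold or more higher in both libraries and 12 lower.

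Markers of other cell types were present unequally, most of them below the filter on level. Of 12 B cell markers 3 passed the filter in both libraries, and the summed level of the list was 1365 CPM in Helios-detected and 568 CPM in Helios-undetected lymph node cells, and 1272 and 1194 CPM in spleen. These sums cover all 12 markers, Ighm, given next, among them. Of the members at 50 CPM or more in a library, all 3 in lymph node were higher in Helios-detected cells. In spleen 1 of 5, Ighm, was higher and 4 were lower, with a median log2 ratio of -0.72. H2-Aa, H2-Ab1 and H2-Eb1 had log2 ratios of 2.66, 3.66 and 2.78 in lymph node and -1.83, -2.41 and -2.58 in spleen. Ighm, the immunoglobulin mu constant region, was at 827 against 477 CPM in lymph node cells (ratio 1.73, interval 1.45 to 2.08) and 738 against 377 CPM in spleen (ratio 1.96, interval 1.64 to 2.35). Cd74, a gene of antigen presentation, had 168 against 16 UMIs in lymph node cells and 272 against 174 in spleen cells, 40 of the 174 in a single cell. Cd79a, a chain of the B cell receptor complex, had few UMIs, 11 against 1 in lymph node cells. In spleen cells Cd79a had 3 against 15 UMIs, 7 of the 15 in a single cell. Ncr1 of natural killer cells and Csf1r of macrophages were at 0 UMIs on both sides of both libraries. A UMI of any of 10 such markers in full counts was found in 23.7% of Helios-detected and 8.70% of Helios-undetected lymph node cells, and in 18.5% and 14.4% in spleen. Without all these cells, 94 genes were 1.5-fold or more higher in both libraries and 10 lower, and none of the list medians left its interval. Whether free RNA, doublets or unequal depth set these marker levels was not tested.

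Several genes differed in level along the number of Ikzf2 UMIs. S100a6 in lymph node was at 184 CPM in cells without Ikzf2, 510 CPM in the 188 cells that had Ikzf2 in full counts but none after thinning, 604 CPM in cells with a single Ikzf2 UMI and 952 CPM in cells with 2 or more. In spleen the same 4 classes were at 182, 789, 839 and 981 CPM. For S100a6 the cells just outside the threshold stood nearer to those just inside it than to the Helios-undetected cells, which was not so for Klrg1 and Nrp1 in lymph node. Klrg1 in lymph node was at 6.04, 17.7, 91.8 and 148 CPM in this order, and Nrp1 at 63.4, 75.4, 131 and 150 CPM. Tnfrsf4 in spleen was at 363, 599, 606 and 911 CPM. Ccr7 went the opposite way, at 229, 142, 109 and 107 CPM in lymph node and 316, 238, 252 and 163 CPM in spleen. The summed level of the ribosomal protein list was 366558, 356219, 333277 and 307645 CPM in lymph node and 376117, 345406, 328207 and 287578 CPM in spleen. Foxp3, of which every cell was required to hold a UMI, was at 507, 408, 477 and 515 CPM in lymph node. Its level is a description and not a contrast to the other genes. The cells on neither side were the deepest, with medians of 3555.5 and 3660 UMIs, so the classes differ in depth as well. When they were counted as Helios-undetected, 50 genes were 1.5-fold or more higher in both libraries and 6 lower.

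**Figure D5:**
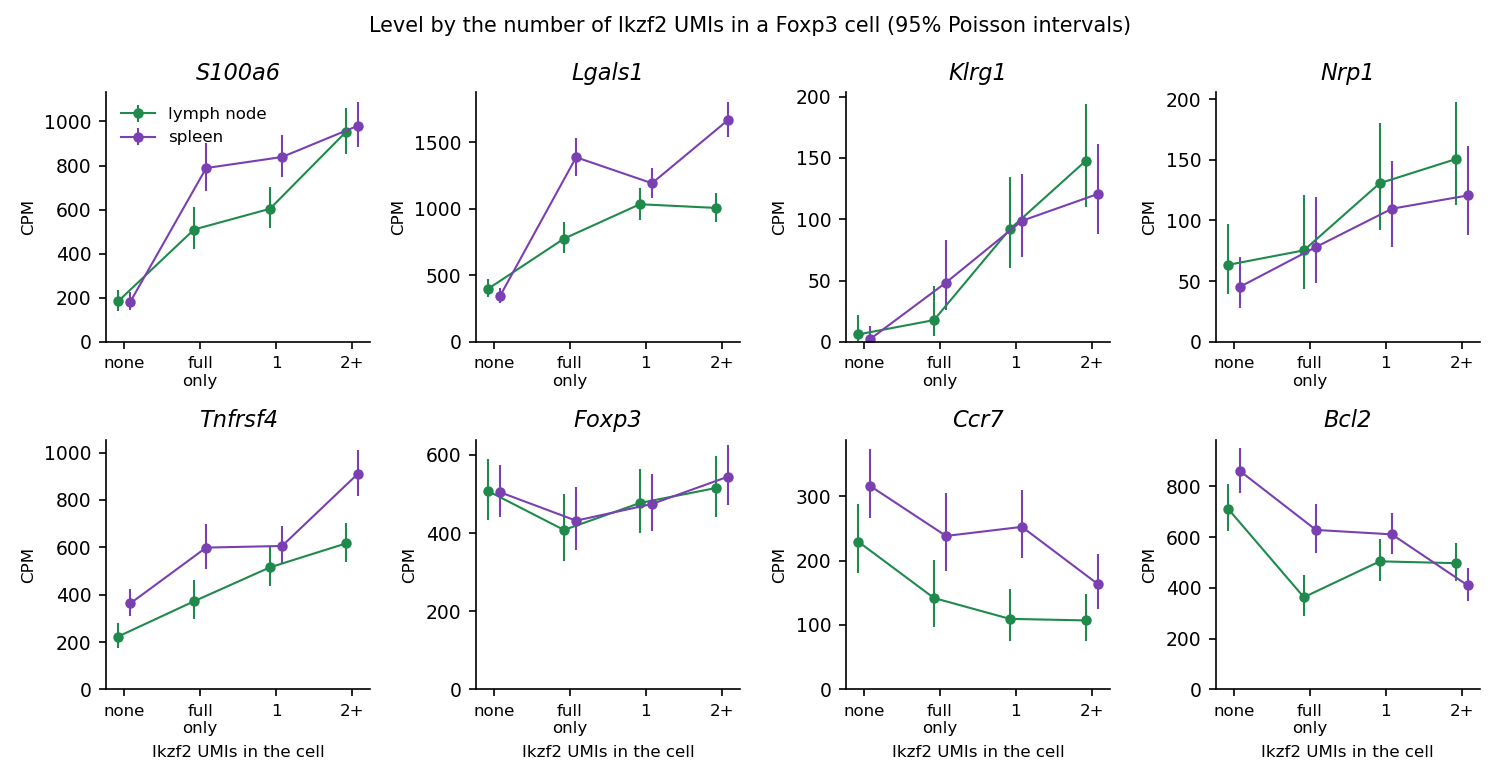
Each panel gives the CPM of 1 gene (linear axis from 0) in Foxp3 cells with no Ikzf2 UMI, with Ikzf2 only in full counts, and with 1 or with 2 or more Ikzf2 UMIs after thinning; bars are 95% Poisson intervals and lines join the classes of a library. S100a6, Lgals1, Klrg1, Nrp1 and Tnfrsf4 are lowest in cells without Ikzf2, and Ccr7 and Bcl2 are highest there. The intervals of Foxp3, which was required of every cell, overlap.

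ICRE, a sequence that the submitters added to the gene table and did not describe, was scarce in all Foxp3 cells. After thinning it was found in 6 of 524 Helios-detected (1.15%, interval 0.421 to 2.48) and 7 of 276 Helios-undetected lymph node cells (2.54%, interval 1.03 to 5.16), and in 13 of 615 (2.11%) and 12 of 367 (3.27%) in spleen. Foxp3-undetected cells had it in 7.01% and 6.98%, and B cell-marker barcodes in 0 of 43 and 0 of 44. By CPM the ratio of Helios-detected to Helios-undetected cells was 0.451 and 0.696 in this draw, and 0.754 and 1.03 over all draws. The sides were not separable at this depth.

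Cells in which no Foxp3 UMI was captured were split by Ikzf2 in the same way, which gives a comparison in cells that the choice above did not use. It set 1504 lymph node cells with Ikzf2 after thinning against 1635 without any, and 1811 against 2492 in spleen. Of 2414 genes compared, 32 (1.33%) were 1.5-fold or more higher with Ikzf2 in both libraries and 9 (0.373%) lower. Of the 9, 7 are genes of B cells and antigen presentation (Cd74, Cd79a, H2-Aa, H2-Ab1, H2-Eb1, Igkc and Ly6d), with Cd79a at ratios of 0.148 and 0.140, so the sides also differ in B cell transcripts; its part in the other differences was not tested. Of the 98 genes above, 80 could be compared here. Of these, 65 were higher in both libraries (45.0% of all genes compared were) and 4 lower in both, and 22 reached 1.5-fold in both, which is 22.4% of the 98 and 68.8% of the 32. Nrp1 was 2.58-fold and 2.49-fold higher, and Tnfrsf9 2.54-fold and 3.38-fold. Klrg1 was below the filter on level here and not among the genes compared. It had 72 against 9 UMIs in lymph node (ratio 8.70, interval 4.34 to 19.8) and 49 against 8 in spleen (ratio 8.43, interval 3.96 to 20.6). Gpr83, not separated among Foxp3 cells, was 1.59-fold (interval 1.30 to 1.95) and 1.68-fold (interval 1.45 to 1.96) higher. All 11 of the lower genes above could be compared here. Of these, 9 were again lower in both libraries (21.0% of all genes compared were). Only 1, Ly6c1, reached 1.5-fold in both, at ratios of 0.501 and 0.472. Ccr7 had ratios of 0.746 in lymph node and 0.951 in spleen, where the interval (0.863 to 1.05) held 1. Of 80 ribosomal protein genes 73 were lower in both libraries, with medians of -0.12 in each, against 21.0% of all genes. Cells without a Foxp3 UMI can include Treg cells whose transcript was missed, other CD25+ T cells and B cell-marker barcodes, and the shares of each were not estimated.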

How the data were processed

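The deposited matrices hold UMI counts per gene and barcode, made by the authors with Cell Ranger 3.0.1 on mm10, per the submitters' processing notes. The gene table has 31056 features. The tables hold 0 columns of other samples. Barcodes were kept with 500 or more genes and at most 10% mitochondrial UMIs. This removed 259 barcodes in lymph node and 297 in spleen. A further 252 and 525 had fewer than 1200 UMIs. Library totals were 13324306 and 16868549 UMIs. Each cell was thinned without replacement to 1200 UMIs with a fixed seed. Counts were summed per side and library and divided by the total. CPM intervals are exact Poisson, shares exact Clopper-Pearson, and ratios exact conditional, all at 95% and for counting error only. Cells are not replicates, and with 1 library per tissue no p-value was computed. Genes were compared at a mean of 50 CPM or more in both libraries, without Ikzf2 and Foxp3. A count of 0 was read as at most 3.

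Named genes are the 12 on each side with the largest interval bound nearest a ratio of 1, taking the weaker library, up to 4 members per list by mean ratio, and 14 genes named always. Markers of other cell types, Igkc, Ndufv1 and the genes under other observations fall outside this rule and were chosen after their values were seen. The cells, lists and genes were chosen with earlier results of these data known. No doublet caller was run; leaving out the 6% of barcodes with the most UMIs is an alternative. Expected counts over all thinnings were added after one draw was found to shift single genes. Interval code was tested on simulated data. Promoters are RefSeq sequences. Tools were Python 3.11.15, numpy 2.4.6, scipy 1.17.1 and matplotlib 3.10.9. A few results are not reported here.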

Additional observations from a re-analysis of the deposited data

Results flagged for a closer look

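Of 2273 genes compared, 2 stood on opposite sides in the libraries with both intervals clear of a ratio of 1. The difference between the tissues was not tested. Igkc, the immunoglobulin kappa constant region of B cells, had a Helios-detected over Helios-undetected ratio of 4.653 in lymph node (53 against 6 UMIs, interval 2.0 to 13.2) and 0.6089 in spleen (50 against 49 UMIs, interval 0.402 to 0.922). A single Helios-undetected spleen cell held 22 of the 49 UMIs. Ndufv1, a subunit of respiratory complex I, had a ratio of 0.5427 in lymph node (34 against 33 UMIs, interval 0.326 to 0.904) and 1.738 in spleen (67 against 23 UMIs, interval 1.07 to 2.93). Over all draws of the thinning the ratios were 5.38 and 0.523 for Igkc and 0.702 and 1.64 for Ndufv1.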

How the results depend on the processing

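In all, 23 alternatives were tried, 3 of them added after seeing the data (no shared barcodes, no effector-marker cells, expected counts). Of 588 recomputed list medians 39, of 10 medians, changed sign, each of a median whose interval held 0, and 563 stayed within their intervals, as did 2590 of 2834 recomputed values of named genes. No paired analysis was possible because each tissue has 1 library, and for the same reason no replicate could be left out. The cause of the shifts below was not tested.

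The Helios-detected share followed the depth: 44.2% in lymph node and 41.4% in spleen at 800 UMIs, and 64.2% and 61.8% at 2000 UMIs. With 2 or more Ikzf2 UMIs required it was 29.15% and 25.8%, with 2 or more Foxp3 UMIs 58.6% and 55.4%, and without cells with another type's UMI 49.5% in lymph node. The Helios-undetected share was 47.0% and 49% when set after thinning, 22.0% and 22.5% with 2 or more Foxp3 UMIs, 31.2% in lymph node without cells with another type's UMI, and in spleen 33.7% without the deepest barcodes and 33.5% without cycling cells.

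Genes higher and lower in both libraries numbered 50 and 6 with Helios-undetected set after thinning, 175 and 40 with 2 or more Foxp3 UMIs, 267 and 57 at 20 CPM, 37 and 4 at 100 CPM, 749 and 358 with no filter, 275 and 60 at the lower fold threshold tried, and 23 and 1 at 2-fold. Without effector-marker cells 57 were higher. Lower genes numbered 20 with Foxp3 read after thinning and 18 with the median ratio set to 1.

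The ribosomal median in lymph node was -0.21 in full counts, -0.21 with depth weighting, -0.23 with 2 or more Ikzf2 UMIs, -0.23 with 2 or more Foxp3 UMIs, -0.17 at 5% mitochondrial UMIs, -0.17 without cycling cells, -0.12 without effector-marker cells and -0.26 with the median ratio set to 1. In spleen it was -0.24 with Helios-undetected set after thinning, -0.39 with 2 or more Ikzf2 UMIs, -0.34 with 2 or more Foxp3 UMIs, -0.24 without cycling cells, -0.16 without effector-marker cells and -0.40 with the median ratio set to 1. Without effector-marker cells the spleen medians were 0.71 (effector) and -0.17 (resting). With Helios-undetected set after thinning they were 1.08 (effector, spleen) and 0.39 (suppressor, lymph node). The suppressor median in lymph node was 0.28 at 2000 UMIs and 0.40 in full counts. With 2 or more Foxp3 UMIs the spleen medians were -0.30 (interferon) and 0.29 (receptor complex). With the median ratio set to 1 they were -0.14 (mitochondrial) and -0.19 (translation), and translation in lymph node was 0.07886 at 800 UMIs.

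ICRE was found in 2.48% of lymph node and 3.74% of spleen Helios-detected cells in full counts, in 0% and 0.467% with 2 or more Foxp3 UMIs, and in 1% in spleen at 2000 UMIs. Among Helios-undetected cells it was found in 0.709% at 800 and 0.5025% at 2000 UMIs in lymph node, and in 0% in spleen with 2 or more Foxp3 UMIs. Of the recomputed gene ratios 175 changed sign. Those whose interval did not hold 0 on the log2 scale were 5, Ifi206 in spleen at 2000 UMIs (0.24), Itgae in lymph node with 2 or more Foxp3 UMIs (-1.415), Pgam1 in lymph node in the second draw (-0.20), Stmn1 in lymph node without the deepest barcodes (-0.41) and Tgfb1 in lymph node at 800 UMIs (-0.01566).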

Other observations

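Of the 98 genes higher in Helios-detected cells of both libraries, 73 were on none of the lists. Examples, chosen after their values were seen, follow with the lymph node and spleen ratio of Helios-detected over Helios-undetected cells and the same over all draws of the thinning. Glrx, a glutaredoxin of the redox system, stood at 2.43 and 4.70 (2.5 and 4.36 over all draws). Srgn, the core protein of secretory granules, stood at 1.72 and 2.62 (1.7 and 2.64). Cst7, a cysteine protease inhibitor, stood at 2.51 and 2.23 (2.18 and 2.81). Cd81, a tetraspanin, stood at 1.61 and 2.48 (1.81 and 2.44).

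In lymph node, Ccl5 had the opposite direction in cells without a Foxp3 UMI. It was at 98.6 CPM in lymph node cells with Ikzf2 and 190 CPM in cells without (ratio 0.520, interval 0.433 to 0.624), and at 39.6 and 24.1 CPM in spleen (ratio 1.64, interval 1.19 to 2.28). The difference from the Foxp3 cells was not tested.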
